A study of Mus musculus with 8 samples.

Results

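The genes described here are 35 genes of the unfolded protein response and the integrated stress response, out of 55487 genes in the files. They were chosen by name, as genes for chaperones of the endoplasmic reticulum (ER), stress sensors and targets of the transcription factor ATF4. Of the 35, 15 form an ER chaperone arm, 6 are stress sensors or transcription factors, 9 form an amino acid arm and 5 are feedback or damage-response genes of the same pathway. All 35 passed the filter on low values (4 or more of the 8 libraries at an FPKM of at least 1), which left 13032 genes. FPKM counts sequenced fragments per transcript length and library size, so that levels of different genes can be set side by side.

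The series compared C57BL/6 mice that bore the mouse melanoma line B16F10 under the skin. The tacrolimus group, 4 mice, received 3 mg/kg of the calcineurin inhibitor tacrolimus into the peritoneum every 5 days, and the vehicle group, also 4 mice, received vehicle on the same schedule. The sample titles and the treatment protocol name vehicle for these control mice, while the design text of the series calls them untreated. Dosing began 7 to 9 days after the tumor cells were injected, when tumors measured about 50 mm3, and the harvest was 6 days after dosing began. CD8+ lymphocytes were sorted from the digested tumors by flow cytometry, and their RNA gave 1 library per mouse. The labels name no transgene or deletion in either group. The p-values below measure the spread between these 8 libraries.

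When unfolded proteins build up in the ER, the kinase and nuclease IRE1α (Ern1) splices the mRNA of Xbp1, and the kinase PERK (Eif2ak3) phosphorylates the translation factor eIF2α. Spliced XBP1, with cleaved ATF6, drives genes for ER chaperones and for the disposal of misfolded proteins. Phosphorylated eIF2α slows protein synthesis in general and favors translation of ATF4, which drives genes for amino acid synthesis and import, and the kinases GCN2, HRI and PKR reach the same step from amino acid shortage, heme shortage or double-stranded RNA. Activated T cells, secretory cells and melanoma cells all use these pathways. Gene-level FPKM show neither the splicing of Xbp1 nor the translation of Atf4.

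The libraries held an estimated 15760000 to 19500000 fragments, and 12724 to 13628 genes per library reached an FPKM of 1. Melanoma transcripts were abundant in every library sorted as CD8+ lymphocytes. The FPKM of 10 melanoma genes summed to 22230 to 27260 with tacrolimus and 18660 to 33890 with vehicle, with 7 of 10 lower on average with tacrolimus. The FPKM of 15 T cell genes summed to 66.3 to 487 with tacrolimus and 482 to 2102 with vehicle, with 15 of 15 lower on average with tacrolimus. Macrophage genes summed to 232 to 542 FPKM with tacrolimus and 414 to 1756 with vehicle, with 12 of 12 lower. For comparison, 75.7% of all genes tested were lower with tacrolimus. Vehicle replicate 1 stood apart, with the highest T cell and macrophage sums of the 8 libraries. Mitochondrial genes took 10.5% to 20.4% of the summed FPKM with tacrolimus and 6.65% to 12.4% with vehicle. In bulk RNA of this kind, fewer cells of a type and less RNA per cell cannot be told apart.

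Promoters of the ER arm and of the amino acid arm differed in the response elements they hold. The 250 bases before the RefSeq start of 32 of the 35 genes (build GRCm38.p6) were searched on both strands for 4 elements. These were the ER stress response element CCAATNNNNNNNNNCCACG (ERSE), the shorter ATTGGNCCACG (ERSE-II), the XBP1 element TGACGTGG (UPRE) and the C/EBP-ATF element TGATGNAA (CARE). ERSE, ERSE-II and UPRE have letters in common, since ERSE and ERSE-II both end in CCACG and the reverse strand of CCACG overlaps the end of UPRE. The ERSE was present in 7 of 13 ER arm promoters and in 35 of 27025 promoters of all genes (0.130%). It was found in 0 of 6 sensor, 0 of 8 amino acid arm and 0 of 5 feedback promoters. The matches are shown with 5 flanking bases in the direction of the gene, because these elements are known to be read by the ER stress factors and by ATF4. Capitals mark the fixed letters of the element, and a match on the reverse strand reads as the reverse complement.
Hspa5, ERSE, chr2:34772020-34772048, + strand: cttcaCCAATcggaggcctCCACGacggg
Hsp90b1, ERSE, chr10:86705633-86705661, - strand: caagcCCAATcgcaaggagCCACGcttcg
Hsp90b1, ERSE in reverse, chr10:86705528-86705556, - strand: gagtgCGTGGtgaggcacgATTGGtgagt
Dnajc3, ERSE, chr14:118937822-118937850, + strand: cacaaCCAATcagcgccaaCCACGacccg
Pdia6, ERSE, chr12:17266486-17266514, + strand: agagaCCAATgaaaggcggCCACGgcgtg
Canx, ERSE, chr11:50325795-50325823, - strand: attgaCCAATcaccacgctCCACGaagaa
Calr, ERSE in reverse, chr8:84847070-84847098, - strand: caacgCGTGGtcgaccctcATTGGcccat
Creld2, ERSE in reverse, chr15:88819515-88819543, + strand: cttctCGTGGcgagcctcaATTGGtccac
Herpud1, ERSE-II, chr8:94386372-94386392, + strand: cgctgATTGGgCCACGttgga
Herpud1, CARE in reverse, chr8:94386312-94386329, + strand: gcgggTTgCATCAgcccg
Asns, CARE, chr6:7693220-7693237, - strand: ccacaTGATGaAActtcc
Slc7a11, CARE, chr3:50443667-50443684, - strand: gtggcTGATGcAAacctg
Slc7a11, CARE in reverse, chr3:50443648-50443665, - strand: agaatTTgCATCAtcatg
Chac1, CARE in reverse, chr2:119351044-119351061, + strand: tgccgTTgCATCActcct

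The CARE was present in 4 of the 32 promoters and in 1056 of all 27025 (3.91%). Its 4 holders were the amino acid arm genes Asns and Slc7a11, the feedback gene Chac1 and the ER arm gene Herpud1. Herpud1 was also the gene with an ERSE-II, which 10 promoters of all genes hold (0.037%). The UPRE was in 0 of the 32 promoters and in 163 of all (0.603%). Manf, Hyou1 and Slc7a5 had no promoter to search.

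The ER chaperone arm lay lower with tacrolimus than with vehicle in all 15 of its genes, by a median of 0.39 on the log2 scale, but no gene of the 35 passed the test. Differences are tacrolimus minus vehicle in log2(FPKM + 1), where the added 1 understates the change of low genes. Of all 13032 genes, 0 passed a limma adjusted p of 0.05 (0%). At an unadjusted p under 0.05 in limma, 2056 genes were lower with tacrolimus (15.8%) and 208 were higher (1.60%). Against that background, 17 of the 35 stress genes were lower and 0 higher, and 11 of the 17 belonged to the ER arm. The groups did not overlap for 9 of the 35, all lower with tacrolimus, where 10.2% of all genes were apart in that direction and 0.767% in the other. Values as deposited were lower with tacrolimus for 75.7% of all genes, and the median gene lay at -0.19, so a value below 0 is the usual state in these libraries.

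**Figure D1:**
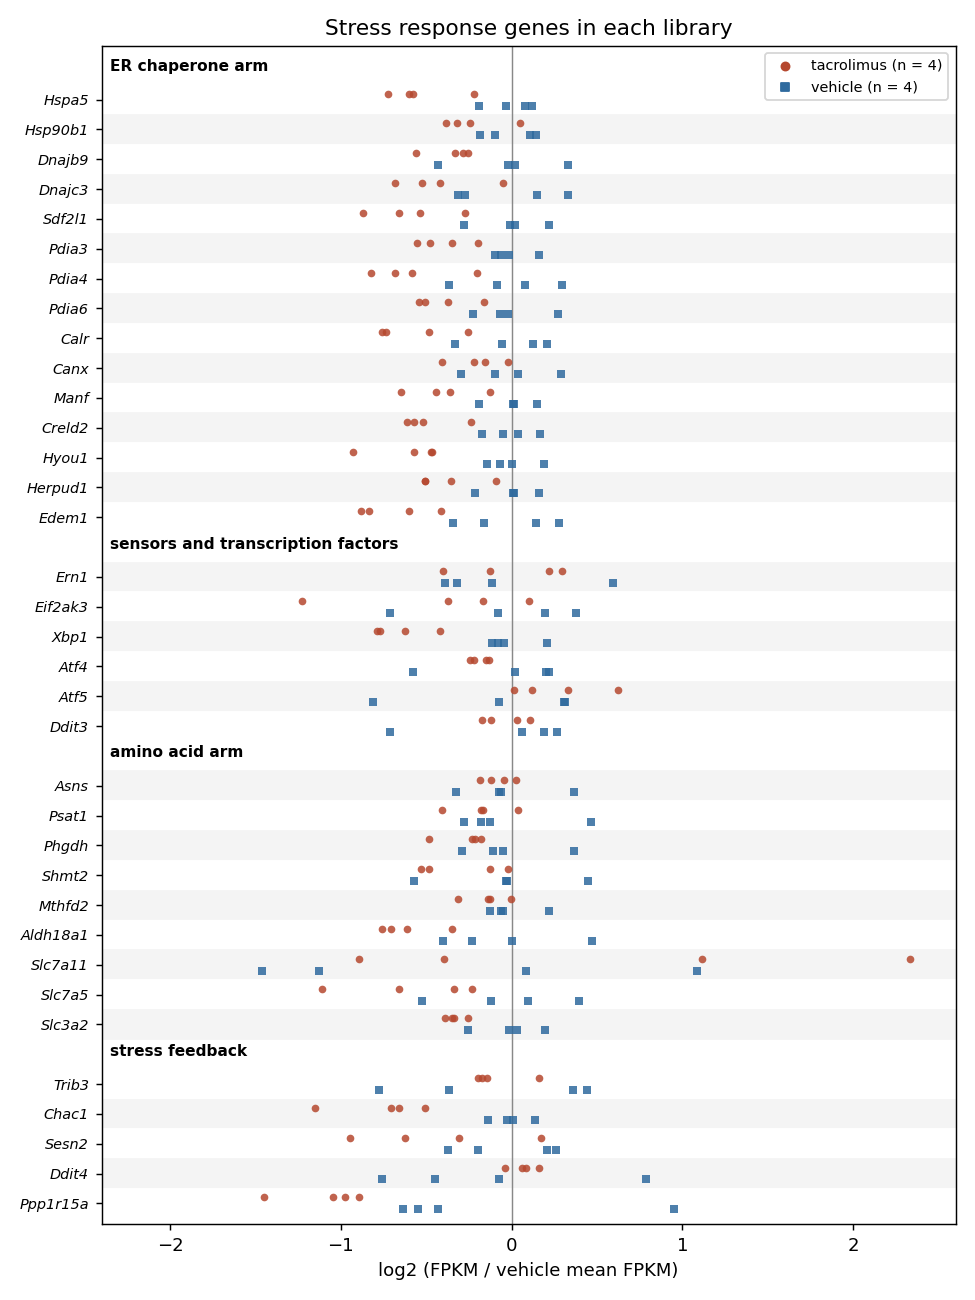
FPKM of each of the 35 genes in each library, as log2 of its ratio to the vehicle mean of that gene; red points are the 4 tacrolimus libraries, blue squares the 4 vehicle libraries. The red points of the ER chaperone arm lie mostly left of the blue squares, while those of Asns, Ddit3 and Trib3 lie among them.

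Hspa5 encodes BiP, the main Hsp70 chaperone of the ER and the protein that holds the stress sensors inactive (chromosome 2, 34771970 to 34777547, GRCm38). It stood at 288, 293, 265 and 376 FPKM in tacrolimus replicates 1 to 4, against 476, 461, 384 and 428 FPKM in vehicle replicates 1 to 4. Every tacrolimus library was below every vehicle library, with tacrolimus replicate 4 closest. The means were 305 ± 48.3 FPKM with tacrolimus and 437 ± 40.9 with vehicle (SD, n = 4 each), and differed by -0.52 (SE 0.14, limma adjusted p = 0.193).

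Calr encodes calreticulin, a lectin chaperone that folds glycoproteins and stores calcium (chromosome 8, 84841850 to 84846934). Its FPKM were 321, 382, 315 and 448 with tacrolimus, against 424, 615, 513 and 582 with vehicle. Only tacrolimus replicate 4 reached into the vehicle range, above vehicle replicate 1. The difference was -0.54 (SE 0.17, limma adjusted p = 0.195), with a mean of 366 ± 62.2 FPKM with tacrolimus and 533 ± 84.6 with vehicle.

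Creld2, an ER stress-inducible protein of the secretory pathway (chromosome 15, 88819646 to 88826683), had 69.9, 74.6, 71.8 and 90.4 FPKM with tacrolimus and 109, 103, 94.6 and 120 with vehicle. The groups did not overlap, though tacrolimus replicate 4 came close to vehicle replicate 3. Its difference was -0.47 (SE 0.13, limma adjusted p = 0.193), with a mean of 76.7 ± 9.34 FPKM with tacrolimus and 107 ± 10.6 with vehicle. Edem1 helps to extract misfolded glycoproteins for degradation (chromosome 6, 108828641 to 108859356). It measured 17.5, 20.7, 17.0 and 23.6 FPKM in the tacrolimus libraries and 38.0, 34.6, 24.8 and 28.0 in the vehicle libraries. The highest tacrolimus value lay just under the lowest vehicle value. Edem1 had the largest difference of the arm, -0.63 (SE 0.18, limma adjusted p = 0.193), and -0.54 without vehicle replicate 1.

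The remaining genes of the arm are given by their group means in FPKM ± SD. Sdf2l1, a partner of BiP complexes, averaged 62.4 ± 11.0 with tacrolimus and 92.5 ± 12.9 with vehicle, and the groups overlapped only by 76.7 FPKM in tacrolimus replicate 4 against 76.4 in vehicle replicate 1. Hyou1, which exchanges the nucleotide of BiP, averaged 7.04 ± 0.99 with tacrolimus and 10.7 ± 1.08 with vehicle. Pdia3, the disulfide isomerase that works with calreticulin, averaged 199 ± 21.8 with tacrolimus and 260.5 ± 21.4 with vehicle. For Hyou1 and Pdia3 the groups did not overlap.

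The other isomerases ran the same way with overlapping groups. Pdia4 averaged 166 ± 32.0 FPKM with tacrolimus and 243 ± 45.9 with vehicle, and Pdia6 averaged 198 ± 24.3 with tacrolimus and 259 ± 38.3 with vehicle. Manf, a secreted ER stress protein, averaged 122 ± 18.4 FPKM with tacrolimus and 160 ± 15.1 with vehicle. Herpud1, a scaffold of the degradation machinery, averaged 69.4 ± 9.86 FPKM with tacrolimus and 88.6 ± 9.31 with vehicle. Dnajc3, a BiP cochaperone that also inhibits PERK, averaged 26.0 ± 5.07 FPKM with tacrolimus and 34.4 ± 7.57 with vehicle. These 5 genes differed by -0.55 (Pdia4) to -0.35 (Herpud1).

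The smallest differences of the arm were those of Dnajb9, Hsp90b1 and Canx. Dnajb9 encodes the cochaperone that returns BiP to IRE1α, and averaged 11.3 ± 1.04 FPKM with tacrolimus and 14.4 ± 3.05 with vehicle. Hsp90b1 encodes the ER Hsp90 protein GRP94, and averaged 250 ± 34.3 FPKM with tacrolimus and 290 ± 31.6 with vehicle. Canx encodes calnexin, the membrane-bound relative of calreticulin, and averaged 186 ± 20.2 FPKM with tacrolimus and 213 ± 36.3 with vehicle. Both Hsp90b1 and Canx carry an ERSE. The 7 genes with an exact ERSE match had a median difference of -0.38. The 6 searched ER arm genes with no exact match in the 250 bases, among them Herpud1 with its ERSE-II, had -0.47.

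A few libraries held the extremes of the arm. The lowest value of the 8 libraries was in tacrolimus replicate 3 for 9 of the 15 genes and in tacrolimus replicate 1 for the other 6. The highest was in vehicle replicate 2 for 7 genes, in vehicle replicate 4 for 5 and in vehicle replicate 1 for 3 (Hspa5, Dnajb9 and Edem1). The median-of-ratios factors, which scale the whole library, were lowest in tacrolimus replicates 3 (0.851) and 1 (0.863) and highest in vehicle replicates 2 (1.21) and 4 (1.10). Without vehicle replicate 1 the median of the arm was -0.46, and 11 of 15 genes were at an unadjusted p under 0.05 in limma, of which 10 were also there with all libraries. All genes moved as well, with 2500 of 13032 lower in that fit against 2056 with all libraries, and a median of -0.24 against -0.19.

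Among the 6 sensors and transcription factors, Xbp1 was the only gene whose groups did not overlap, where 10.2% of all genes were apart and lower. Xbp1 encodes the factor whose spliced form drives ER chaperone genes (chromosome 11, 5520659 to 5525893). It measured 49.7, 55.7, 50.3 and 64.3 FPKM with tacrolimus, against 83.5, 99.4, 79.4 and 81.5 with vehicle. The lowest vehicle library was well above the highest tacrolimus library. The means were 55.0 ± 6.75 FPKM with tacrolimus and 86.0 ± 9.14 with vehicle (SD, n = 4 each). The difference of -0.64 (SE 0.14, limma adjusted p = 0.179) had the smallest p of the 35 genes, and the adjusted p ran from 0.0512 to 0.386 over the alternatives tried.

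Atf4, the central factor of the integrated stress response (chromosome 15, 80255184 to 80257541), measured 150.1, 160.2, 152 and 162 FPKM with tacrolimus and 204, 207, 180.1 and 119 with vehicle. The tacrolimus libraries lay close together, inside a vehicle range that vehicle replicate 4 alone stretched downward. The difference was -0.15 (SE 0.18, limma adjusted p = 0.662, 95% interval -0.55 to 0.24), and -0.33 without vehicle replicate 4. Ddit3 encodes CHOP, a factor that favors cell death under lasting stress (chromosome 10, 127290774 to 127296288). It had 82.0, 91.4, 96.2 and 79.0 FPKM with tacrolimus and 93.04, 102, 107 and 54.5 with vehicle. Vehicle replicate 4 was again the lowest of all 8, and the other vehicle libraries were at or above most tacrolimus libraries. The difference was 0.01 (SE 0.21, limma adjusted p = 0.987, 95% interval -0.45 to 0.47), and -0.21 without vehicle replicate 4. Exons of Ddit3 overlap those of Mars on the other strand, and the strand setting of the counting is not given in the sources used here. Exons of Hsp90b1, Dnajb9, Pdia3, Pdia6, Manf, Eif2ak3, Atf5, Shmt2 and Ppp1r15a also overlap genes on the other strand, so the same limit holds for them.

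The sensors themselves were low. Eif2ak3, which encodes PERK (chromosome 6, 70844515 to 70905245), had 7.10, 5.12, 2.83 and 5.89 FPKM with tacrolimus and 7.57, 8.60, 6.26 and 4.05 with vehicle. The groups overlapped widely, with a difference of -0.30 (SE 0.28, limma adjusted p = 0.575). Ern1, which encodes IRE1α, averaged 4.37 ± 0.94 FPKM with tacrolimus and 4.30 ± 1.50 with vehicle. Atf5, a relative of ATF4, averaged 1.64 ± 0.32 FPKM with tacrolimus and 1.34 ± 0.42 with vehicle. The 6 genes of this group had a median difference of -0.07, above the median of all genes.

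**Figure D2:**
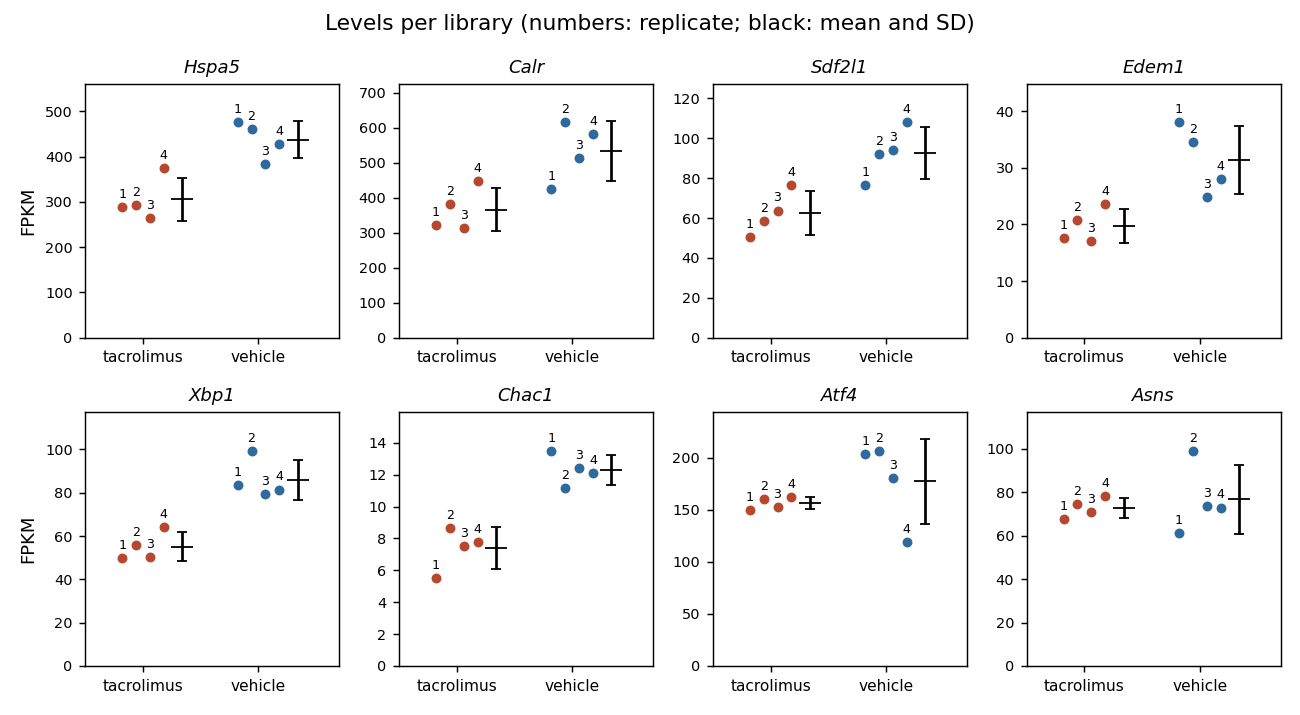
FPKM of 8 stress genes in each library, tacrolimus (red) left of vehicle (blue); numbers beside the points are replicate numbers, and black bars are mean and SD (n = 4 each). Hspa5, Edem1, Xbp1 and Chac1 show groups that do not overlap, while vehicle replicate 4 is lowest for Atf4 and vehicle replicate 2 is highest for Asns.

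The amino acid arm differed less between the groups than the ER arm. Its median difference was -0.24, near the -0.19 of all genes, with 8 of 9 genes below 0 and 3 of 9 lower at an unadjusted p under 0.05 in limma, where all genes gave 75.7% and 15.8%. The groups were apart for 1 of the 9, near the 10.2% of all genes. Slc3a2 was that gene. It encodes CD98, the heavy chain of several amino acid transporters (chromosome 19, 8706882 to 8723369). Its FPKM were 121, 132, 124 and 125 with tacrolimus and 181, 162, 157 and 132 with vehicle. Tacrolimus replicate 2 and vehicle replicate 4 nearly met. The difference was -0.32 (SE 0.13, limma adjusted p = 0.249).

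Slc7a5 encodes LAT1, the light chain that imports large neutral amino acids together with CD98 (chromosome 8, 121881150 to 121907694). It stood at 21.9, 27.3, 16 and 29.4 FPKM with tacrolimus and 24.0, 45.4, 31.7 and 36.9 with vehicle. The groups overlapped through vehicle replicate 1, and the difference was -0.53 (SE 0.24, limma adjusted p = 0.284). Aldh18a1 starts proline synthesis from glutamate (chromosome 19, 40550257 to 40588463). It had 12.2, 13.5, 12.7 and 16.2 FPKM with tacrolimus and 15.7, 28.7, 17.6 and 20.7 with vehicle. The groups overlapped only in that tacrolimus replicate 4 exceeded vehicle replicate 1, and the difference was -0.54 (SE 0.20, limma adjusted p = 0.229). Without tacrolimus replicate 1, and likewise without tacrolimus replicate 3, the genes of the arm at an unadjusted p under 0.05 numbered 0. All 13032 genes then gave 1463 and 1313 lower.

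Phgdh catalyzes the first step of serine synthesis (chromosome 3, 98313170 to 98339990). It measured 108, 109, 90.5 and 112 FPKM with tacrolimus and 103, 163, 118 and 122 with vehicle. Vehicle replicate 2 was far above the rest, and the difference was -0.25 (SE 0.16, limma adjusted p = 0.408). Psat1, the next enzyme of serine synthesis, averaged 54.8 ± 6.87 FPKM with tacrolimus and 61.7 ± 15.7 with vehicle. Asns, asparagine synthetase and a classical ATF4 target, averaged 72.8 ± 4.67 FPKM with tacrolimus and 76.8 ± 15.9 with vehicle. The 95% interval of the Asns difference ran from -0.40 to 0.29 around -0.06.

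The mitochondrial folate enzymes and the cystine transporter complete the arm. Shmt2 averaged 54.9 ± 9.66 FPKM with tacrolimus and 66.3 ± 18.8 with vehicle, and Mthfd2 averaged 50.4 ± 4.45 with tacrolimus and 55.6 ± 6.16 with vehicle. Slc7a11, which imports cystine for glutathione, was the only gene of the arm with a difference above 0. It had 21.4, 2.28, 9.19 and 3.23 FPKM with tacrolimus and 8.99, 1.94, 1.54 and 4.49 with vehicle. Tacrolimus replicate 1 was highest by far, and the groups overlapped. Its difference of 0.74 (SE 0.62, limma adjusted p = 0.532) was 0.21 without tacrolimus replicate 1. Vehicle replicate 2 held the highest value of the 8 libraries for the other 8 genes of the arm except Slc3a2, and without it the median of the arm was -0.08.

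Among the 5 feedback genes, the groups were apart for Chac1 and Ppp1r15a, where 10.2% of all genes were apart and lower. The median difference was -0.35, beside -0.19 for all genes. Chac1 encodes an enzyme that degrades glutathione downstream of ATF4 (chromosome 2, 119351229 to 119354381). It had 5.54, 8.65, 7.53 and 7.78 FPKM with tacrolimus and 13.5, 11.2, 12.4 and 12.1 with vehicle. The groups were well apart, at 7.38 ± 1.31 FPKM with tacrolimus and 12.3 ± 0.96 with vehicle. The difference was -0.68 (SE 0.17, limma adjusted p = 0.183), the second smallest p of the 35. Ppp1r15a encodes GADD34, the phosphatase subunit that restores eIF2α and so ends the response (chromosome 7, 45522916 to 45526268). It measured 48.6, 50.9, 36.7 and 54.0 FPKM with tacrolimus and 193, 68.5, 64.6 and 74.3 with vehicle. Vehicle replicate 1 was far above the other 7 libraries, and the groups did not overlap with or without it. The difference of -0.91 (SE 0.32, limma adjusted p = 0.218) was the largest of the 35, and became -0.54 without vehicle replicate 1, where the vehicle mean was 69.1 FPKM.

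The remaining feedback genes overlapped between groups. Sesn2 encodes an inhibitor of the growth kinase complex mTORC1 (chromosome 4, 132492032 to 132510501). It had 7.28, 10.2, 4.68 and 5.85 FPKM with tacrolimus and 7.86, 10.4, 6.98 and 10.8 with vehicle, a difference of -0.35 (SE 0.24, limma adjusted p = 0.447). Replicate 2 was high in both groups. Ddit4, another mTORC1 inhibitor (chromosome 10, 59949669 to 59951834), had 17.3, 18.6, 19.9 and 18.9 FPKM with tacrolimus and 13.0, 16.9, 30.7 and 10.5 with vehicle. The tacrolimus values lay within the wide vehicle range, with a difference of 0.18 (SE 0.28, limma adjusted p = 0.751) and -0.02 without vehicle replicate 4. Without vehicle replicate 3, which held the highest value, it was 0.46 (limma adjusted p = 0.259). Trib3, a pseudokinase that restrains ATF4, averaged 16.8 ± 2.05 FPKM with tacrolimus and 17.8 ± 6.74 with vehicle. Vehicle replicate 4, the lowest library for Atf4 and Ddit3, was also the lowest for Trib3 and Ddit4.

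The arms were then compared within each library by their mean log2(FPKM + 1). The ER arm stood at 6.28, 6.42, 6.25 and 6.63 with tacrolimus and at 6.74, 6.96, 6.70 and 6.90 with vehicle, with no overlap. The amino acid arm stood at 5.46, 5.34, 5.33 and 5.44 with tacrolimus and at 5.46, 5.81, 5.40 and 5.56 with vehicle, with overlap. The distance from the amino acid arm up to the ER arm was 0.82, 1.08, 0.92 and 1.19 with tacrolimus, against 1.28, 1.15, 1.296 and 1.34 with vehicle. It averaged 1.002 ± 0.164 with tacrolimus and 1.266 ± 0.0836 with vehicle, and the groups overlapped between tacrolimus replicate 4 and vehicle replicate 2. This distance is free of the scaling of a library except for the added 1. Without the spread-out Slc7a11 it averaged 0.69 ± 0.06 with tacrolimus and 0.84 ± 0.18 with vehicle. The groups then overlapped, as vehicle replicate 2 at 0.61 lay below the tacrolimus range of 0.63 to 0.77. Leaving out that gene moved the difference between the group means of this distance from -0.26 to -0.15. The difference between the medians of the arms was -0.15, and ran from -0.26 to -0.17 with single libraries left out.

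**Figure D3:**
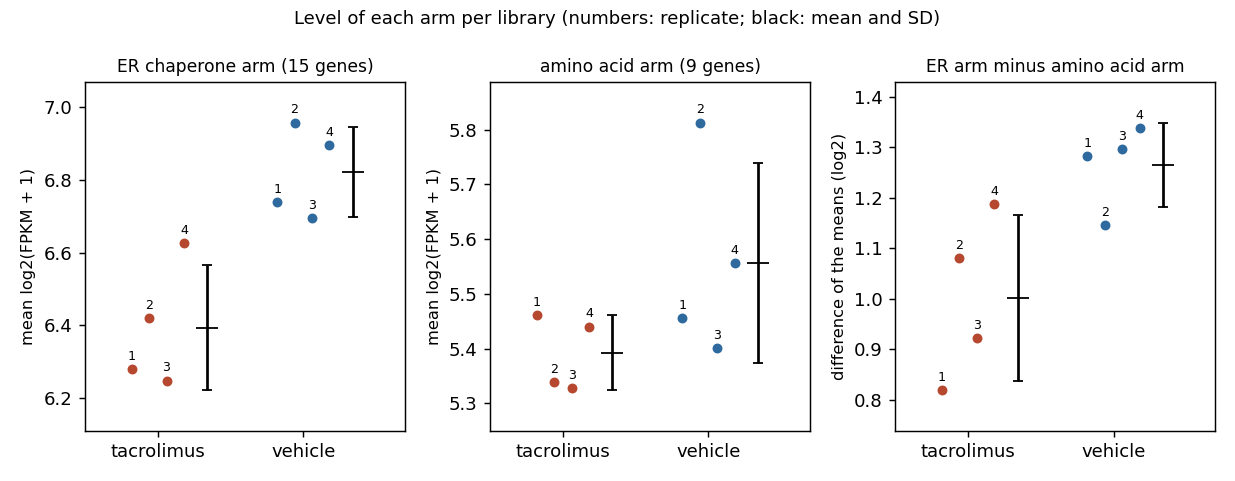
Mean log2(FPKM + 1) of the ER chaperone arm and of the amino acid arm, and the distance between them, in each library; tacrolimus (red) is left of vehicle (blue), numbers are replicates and black bars are mean and SD (n = 4 each). The axes do not start at 0. The groups are apart for the ER arm and overlap in the other panels.

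Ratios of single genes within a library need no scaling. The ratio of Xbp1 to Atf4 FPKM was 0.331, 0.348, 0.330 and 0.397 with tacrolimus and 0.409, 0.481, 0.441 and 0.684 with vehicle. The groups were apart by a narrow margin, and vehicle replicate 4, low in Atf4, had the highest ratio. The ratio of Hspa5 to Asns was 4.26, 3.94, 3.75 and 4.79 with tacrolimus and 7.74, 4.65, 5.21 and 5.87 with vehicle, with overlap between tacrolimus replicate 4 and vehicle replicate 2. The ratio of Xbp1 to Hspa5 averaged 0.181 ± 0.0103 with tacrolimus and 0.197 ± 0.0178 with vehicle, with overlap. The ratio of Slc3a2 to Slc7a5 averaged 5.59 ± 1.52 with tacrolimus and 4.91 ± 1.87 with vehicle, also with overlap. These 4 pairs were the ones computed, and they were chosen with earlier results known.

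The scaling of the libraries set the size of these differences. Under median-of-ratios scaling the median of all genes moved to 0.01, and 735 genes were lower (5.64%) and 741 higher (5.69%) with tacrolimus at an unadjusted p under 0.05 in limma, with 0 past the adjusted threshold (0%). The stress genes then counted 10 of 35 lower and 0 higher, and 7 of the 10 were ER arm genes. The groups were apart for 9 of the 35, all lower, against 3.47% of all genes lower and 3.22% higher. Below 0 lay 23 of the 35, against 49.2% of all genes. The ER arm had a median of -0.16 with 13 of 15 below 0, and the amino acid arm had a median of -0.02 with 5 of 9 below 0. The distance between the medians stayed at -0.15.

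This scaling added nearly the same amount to each of the 35 differences, from 0.14 (Atf5) to 0.23 (Calr), with a median of 0.23. Xbp1 was at -0.41, Chac1 at -0.47, Edem1 at -0.42, Hspa5 at -0.30, Calr at -0.31 and Creld2 at -0.25. The groups stayed apart for Xbp1, Chac1, Ppp1r15a, Edem1, Hspa5, Hyou1 and Pdia3, became apart for Sdf2l1 and Aldh18a1, and came to overlap for Creld2 and Slc3a2. Hsp90b1, Canx, Atf4, Asns, Psat1, Mthfd2 and Trib3, which had lain closer below 0 than this shift, came to lie between 0.01 and 0.21. For scale, the 2247 genes with a mean of 50 FPKM or more had a median of -0.12 as deposited and 0.11 after median-of-ratios scaling.

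**Figure D4:**
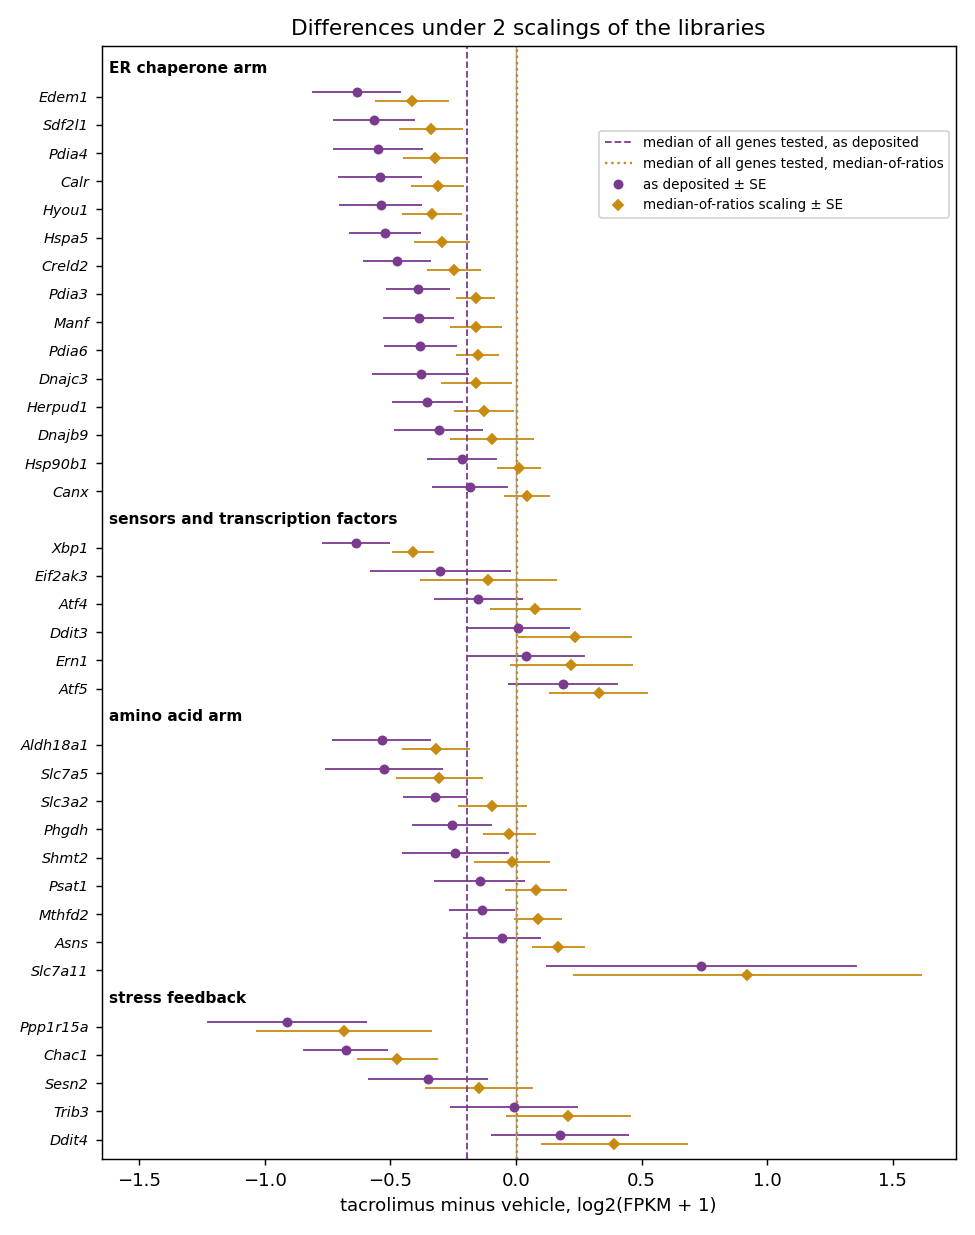
Difference between tacrolimus and vehicle in log2(FPKM + 1) with its SE for each gene, as deposited (purple) and after median-of-ratios scaling (gold), with the median of all genes tested as a vertical line for each. Purple points of the ER chaperone arm run from -0.63 (Edem1) to -0.18 (Canx), and the gold points lie to the right of the purple ones.

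Marker sums of several cell types differed between the groups, and the stress genes were compared with marker level as a covariate. With a covariate for melanoma marker level, 330 of all genes passed a limma adjusted p of 0.05 (2.53%), of which 316 were lower and 14 higher, and 0 of the 35 stress genes did. The ER arm then had a median of -0.34 and the amino acid arm of -0.08. With a covariate for T cell marker level, 0 genes passed (0%) and the medians were -0.50 for the ER arm and -0.41 for the amino acid arm. At an unadjusted p under 0.05 in that limma fit, 13 of the 35 were lower (17.6% of all genes) and 2 higher (2.50%). The ER arm then counted 8 of 15 lower, without Hspa5, Manf and Edem1. The 2 higher genes were Ern1 at 0.57 and Slc7a11 at 2.36, and Ppp1r15a lay at -0.30, against -0.91 with no covariate. Plasma cells carry a large ER, and their markers are given here by value only. Jchain, the joining chain of antibodies, measured 0, 0.22, 0.09 and 0 FPKM with tacrolimus and 5.25, 0.61, 0.59 and 0.05 with vehicle. The 12 plasma and B cell markers summed to 22.9 to 39.1 FPKM with tacrolimus and 41.9 to 156 with vehicle. On average 12 of 12 were lower with tacrolimus, but only 4 of the 12 had a mean FPKM of 1 or more. Among these, Igkc measured 7.75, 3.94, 16.8 and 14.4 FPKM with tacrolimus and 108, 8.45, 28.9 and 15.3 with vehicle. Tnfrsf17, which marks plasma cells, was at 0 in 7 of 8 libraries. T cell marker level itself, as mean log2(FPKM + 1), ran from 2.21 to 4.59 with tacrolimus and from 4.56 to 6.82 with vehicle. The groups nearly part on that covariate, so the T cell fit cannot separate T cell level from treatment. The part of cell types in the stress gene values was not tested.

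Other genes of the same pathways were counted in the same way, beside the shares of all genes (15.8% lower at an unadjusted p under 0.05, 75.7% below 0 and 10.2% apart and lower). Of 39 other tested genes of ER protein folding, out of 40 listed, 12 were lower and 0 higher at an unadjusted p under 0.05 in limma, 37 were below 0, the groups were apart for 4 and the median was -0.33. Those 4 are near the share of all genes. After median-of-ratios scaling 3 of the 39 were lower, beside 5.64% of all genes. Below 0 then lay 29 of the 39, beside 49.2% of all genes, and the median was -0.12. Upper-quartile scaling left 1 of the 39 lower. Os9, a lectin that delivers misfolded glycoproteins for degradation, averaged 25.0 ± 4.40 FPKM with tacrolimus and 36.1 ± 3.16 with vehicle, a difference of -0.53. Dnajb11, a BiP cochaperone, averaged 53.0 ± 5.61 FPKM with tacrolimus and 74.1 ± 10.6 with vehicle. Edem2, a mannosidase of the degradation pathway, averaged 25.9 ± 3.69 FPKM with tacrolimus and 36.5 ± 5.08 with vehicle. The groups did not overlap for these 3 genes as deposited, and those of Os9 overlapped after median-of-ratios scaling. Of 39 other tested genes of the integrated stress response, out of 41 listed, 4 were lower and 0 higher, 34 were below 0 and the median was -0.26, with groups apart for 0 of them. The 4 and the 0 are under the shares of all genes. Slc1a5, a glutamine transporter, averaged 19.9 ± 3.63 FPKM with tacrolimus and 30.8 ± 5.85 with vehicle. Cebpb, a C/EBP factor that pairs with ATF4, averaged 13.7 ± 2.33 FPKM with tacrolimus and 37.8 ± 26.2 with vehicle, where vehicle replicate 1 reached 74.5. Yars, tyrosyl-tRNA synthetase, averaged 21.5 ± 4.31 FPKM with tacrolimus and 29.5 ± 4.74 with vehicle.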

How the data were processed

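The 8 deposited files hold 1 value for each of 55487 genes, with no unit named. From their values they are FPKM, scaled for length and library size by the authors. Per the submitters' processing notes, HISAT2 2.1.0, RSEM 1.3.1, DESeq2 1.24.0 and build GRCm38.p6 were named, without role or order. Identifiers were matched to GENCODE M21 symbols, and 346 had none. Ddit3 has a second identifier inside the first, at 0 in all libraries, which was not used. Fragments per library were estimated from the steps between low FPKM values, of which 81.5% to 86.2% came within 0.15 of a whole step. The fragment number and length offset were those with the highest such share. Evenly spread values give 30.0% at a fixed setting, so the 2 shares are not directly comparable. Counts were not recovered.

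The members, lists and tests were chosen with earlier results of these data known. Values were compared as log2(FPKM + 1) with limma 3.58.1 (lmFit, then eBayes with trend) in R 4.3.3, with Benjamini-Hochberg adjustment over the 13032 genes at or above an FPKM of 1 in 4 or more libraries. The step was tested on simulated data. Full statistics went to the 3 members with the smallest unadjusted p and the 2 with the highest mean in each of the 4 groups, and the 3 other genes with the smallest p were named from each wider list. Slc7a11, named with its values for its spread, was outside that rule and chosen after they were seen. Alternatives were pseudocounts of 0.1 and 0.5, filters, scalings, robust variance, marker covariates, a replicate block and each library left out. No library repeated another, with at most 0.259% identical values in a pair. Promoters are from RefSeq. Searches and plots used Python 3.11.15 and matplotlib 3.10.9.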

Additional observations from a re-analysis of the deposited data

Results flagged for a closer look

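In each of the 70 groups of 4 libraries (35 genes in the tacrolimus and the vehicle group), the highest and the lowest value were checked for a large gap to the next. Such a gap was found in 3 groups, where chance gives about 1 in 20. Trib3 measured 19.84 FPKM in tacrolimus replicate 2, and the other tacrolimus libraries lay between 15.5 and 16.1. Psat1 measured 84.99 FPKM in vehicle replicate 2, the library with the highest value for 7 of the 9 amino acid arm genes, with the other vehicle libraries between 50.8 and 56.4. Ppp1r15a measured 193.39 FPKM in vehicle replicate 1, the library with the highest T cell and macrophage marker sums, with the other vehicle libraries between 64.6 and 74.3.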

How the results depend on the processing

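Median-of-ratios scaling moved the members lower at an unadjusted p under 0.05 in limma to 10, the ER arm median to -0.16 and the amino acid arm median to -0.016, and upper-quartile scaling moved them to 8, -0.16 and -0.018. All 13032 genes gave 735 and 778 lower under these scalings, against 2056 as deposited. Genes past the adjusted threshold numbered 121 with the replicate block (115 lower, 6 higher), 330 with the melanoma covariate, and 0 to 1 with each library left out (1 without vehicle replicate 1). The amino acid arm median was -0.078 with the melanoma covariate, -0.41 with the T cell covariate, and -0.29 to -0.079 with libraries left out. Members at an unadjusted p under 0.05 then ran from 11 (without tacrolimus replicate 1 or 3) to 17. Lower genes among all tested ran from 1313 (without tacrolimus replicate 3) to 2500 (without vehicle replicate 1). In deviations from the group mean, same-numbered libraries correlated at r = 0.215, 0.277, -0.02 and -0.022. Differently numbered ones ran from -0.324 to 0.155. Replicates 1 and 2 thus gave the highest values, and whether the numbers pair the libraries was not settled. The block also moved the members at an unadjusted p under 0.05 to 18, the ER arm genes among them to 12 (with Dnajc3) and the other genes of ER folding to 19 of 39, where all genes gave 2587 lower against 2056. No member passed the adjusted threshold under any alternative run. Directions turned for the genes that follow. Median-of-ratios scaling adds 0.14 to 0.23 to each member, so genes closer to 0 from below had to turn. Median-of-ratios scaling gave Hsp90b1 0.012, Canx 0.044, Atf4 0.077, Asns 0.17, Psat1 0.080, Mthfd2 0.088 and Trib3 0.21, and upper-quartile scaling gave 0.011, 0.043, 0.075, 0.17, 0.079, 0.087 and 0.21 in the same order. The melanoma covariate gave Ern1 -0.098, Ddit3 -0.074, Asns 0.053 and Trib3 0.029, and the T cell covariate gave Atf5 -0.013, Ddit3 -0.025 and Ddit4 -0.00036. A total without mitochondrial genes and Cmss1, chosen after seeing the data, gave Asns 0.030 and Trib3 0.076. With libraries left out, Ern1 ran from -0.051 to 0.22, Trib3 from -0.22 to 0.16, Ddit3 from -0.21 to 0.11, Asns from -0.16 to 0.071, Psat1 from -0.23 to 0.017 and Ddit4 from -0.024 to 0.46. For the covariates and the libraries left out, the cause was not tested.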

Other observations

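Heat shock genes, mostly for cytosolic chaperones that the heat shock response rather than the ER sensors controls, are given beside the ER genes. The list also holds Hspd1 and Hspe1, which encode mitochondrial chaperones, and Hsf1, which encodes a transcription factor. None passed the adjusted threshold. Of 24 tested genes out of 25 listed, 8 were lower and 0 higher at an unadjusted p under 0.05 in limma, 23 were below 0, the groups were apart for 5, and the median was -0.32. The shares of all genes were 15.8% lower, 75.7% below 0 and 10.2% apart. After median-of-ratios scaling 1 of the 24 was lower, under the 5.64% of all genes, and the median was -0.09. Hspa8, the constitutive Hsp70 of the cytosol, averaged 859 ± 81.8 FPKM with tacrolimus and 1105 ± 25.1 with vehicle. Stip1, which links Hsp70 to Hsp90, averaged 93.7 ± 10.5 FPKM with tacrolimus and 125 ± 12.7 with vehicle. Dnajb6, an Hsp70 cochaperone, averaged 61.5 ± 3.72 FPKM with tacrolimus and 79.0 ± 9.14 with vehicle. The groups did not overlap for these 3 genes as deposited, and those of Dnajb6 overlapped after median-of-ratios scaling.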
